A study of Mus musculus with 8 samples.

Results

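Macrophages that lacked the mineralocorticoid receptor and saw no added hormone were set against receptor-bearing macrophages kept in corticosterone. The comparison used 4 of the 8 arrays in the series, 2 knockout untreated arrays and 2 control corticosterone arrays, chosen by their labels alone. It asks how far loss of the receptor by itself brings the cells to the state that the hormone produces. The mineralocorticoid receptor (gene Nr3c2) and the glucocorticoid receptor (gene Nr3c1) are nuclear receptors that both bind corticosterone, the main glucocorticoid of mice. Once bound, they enter the nucleus and act on genes, either at hormone response elements in DNA or by holding back inflammatory transcription factors such as NF-κB and AP-1. In macrophages, glucocorticoids are known to lower inflammatory gene expression and to raise genes of debris uptake and haem scavenging.

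All mice were C57BL6/J, labelled male, and all carried the floxed receptor gene (MR fl/fl). The knockout mice also carried LysM cre, a Cre recombinase under the lysozyme promoter that acts in myeloid cells, so the deletion is not limited to macrophages. Mice received 3% Brewer's thioglycolate into the peritoneum, and cells were taken 4 days later, grown in serum-containing medium and kept by adherence. Control and knockout cells then stood for 24 h with 1 µM corticosterone or with no treatment, which gave 4 groups of 2 arrays. The labels call the arrays of a group biological replicates, each pooled from experiments in triplicate, so a p-value measures the spread between pools. The groups compared here differ in genotype and in hormone at once, and from them alone the contributions of the 2 cannot be told apart.

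Values are log2 levels from Affymetrix mouse arrays, so a difference of 1 log2 unit is a 2-fold change. Each of 18193 genes was read by its brightest probe set. The fit used 7 arrays and left out control untreated replicate 2. The median correlation of that array with the others was 0.916, against 0.995 to 0.996 for each of the other 7. Its replicate differed from it by a median of 0.472 log2 units per gene, whereas replicates differed by 0.0716 in control corticosterone cells, 0.0964 in knockout untreated cells and 0.0773 in knockout corticosterone cells. For 1601 genes that stood over 2 log2 units higher on that array than on its replicate, knockout untreated replicate 2 read above replicate 1 by a median of 0.26. The same genes differed by a median of -0.01 between the control corticosterone arrays. The sex label was not borne out by the arrays. Xist, the RNA that coats the inactive X chromosome of female cells, read 12.05 to 12.27 on all 8 arrays with its brightest probe set. The Y-linked gene Eif2s3y read 4.31 and 4.36 in control corticosterone cells and 5.12 and 5.60 in knockout untreated cells, against 10.06 on control untreated replicate 2. Its difference of 1.03 was called (adjusted p = 0.00949), though not without either control corticosterone replicate.

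A gene was called where limma's p-value, adjusted over all genes by the method of Benjamini and Hochberg, was below 0.05. In the knockout untreated cells 3128 of 18193 genes were called, 17.2% of those tested: 1961 were higher than in control corticosterone cells (10.8%) and 1167 were lower (6.41%). The median difference over all genes was 0.02 and the median SE was 0.105 log2 units. Differences of at least 1 log2 unit made up 2.25% of all genes, with 308 genes higher (1.69%) and 101 lower (0.555%), and 45 and 22 of them reached 2 units. The replicates of the 2 groups did not overlap for 5491 genes higher (30.2%) and 4310 lower (23.7%), and the genes furthest up and down were picked from these. Arrays were also left out 1 at a time: without control corticosterone replicate 1 the counts were 1073 and 637, and without replicate 2 of that group 1054 and 638. With all 8 arrays in the fit, 28 genes were higher and 24 lower. The split between directions depended on the scaling: 62.7% of the called genes were higher as deposited. After each array was centred on its median 23.0% were higher, and the median difference over all genes moved to -0.13. List counts below stand against 10.8% of all genes higher and 6.41% lower, or with centred arrays 980 and 3275 of 18193 genes.

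The checks on the system came first. Nr3c2 read 6.39 and 6.13 in control corticosterone cells and 5.54 and 5.82 in knockout untreated cells, a difference of -0.58 (SE 0.18) that did not pass (adjusted p = 0.0509). It did pass with the 4 arrays alone, with robust variance, with centred arrays (-0.73), without knockout untreated replicate 2 (-0.72) and without either knockout corticosterone replicate, and its adjusted p ran from 0.0109 to 1 over the alternatives. Both knockout arrays lay below both control arrays. No source used here places the probe set against the deleted exons, so the size of this difference does not measure the deletion. Nr3c1 was much brighter and nearly level, at 11.11 and 11.07 against 11.32 and 11.21. Its difference of 0.18 passed (adjusted p = 0.0183) but was 0.03 with centred arrays (adjusted p = 0.749, and from 0.0036 to 1 over the alternatives). The call was also lost without knockout untreated replicate 1 and without either control corticosterone replicate. Hsd11b1, the enzyme that regenerates active glucocorticoid inside cells, read 6.12 and 5.67 against 6.53 and 6.71, a difference of 0.72 (SE 0.16, adjusted p = 0.0148). That call was lost without knockout untreated replicate 2 (adjusted p = 0.0588) and without control corticosterone replicate 2 (adjusted p = 0.126), and its adjusted p ran from 0.00458 to 1 over the alternatives. Hsd11b2, which inactivates glucocorticoid in epithelia that respond to aldosterone, lay between 3.77 and 4.17 on all 4 arrays.

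The cells carried the RNA of macrophages in both groups. Lyz2, the lysozyme gene at whose locus the Cre lies, read 13.65 and 13.66 in control corticosterone cells and 13.60 and 13.58 in knockout untreated cells. Csf1r, the receptor for the macrophage growth factor, read 13.53 and 13.52 against 13.55 and 13.59. Neither passed, and Lyz2 passed with centred arrays at -0.21. Of 11 macrophage markers measured, 3 were higher, 2 lower and 6 not called, with a median difference of -0.02. With centred arrays 1 was higher and 5 lower, with a median of -0.17 against -0.13 over all genes. Without control corticosterone replicate 1, 1 was higher and 2 lower. Their mean level was 12.25 and 12.26 in control corticosterone cells and 12.32 and 12.29 in knockout untreated cells.

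The largest differences downward were in genes that stood high in both hormone groups. Chil3 encodes a secreted chitinase-like lectin that marks alternatively activated mouse macrophages. It read 11.46 and 11.50 in control corticosterone cells and only 6.39 and 6.12 in knockout untreated cells, a difference of -5.22 (SE 0.08, adjusted p = 9.32e-10). In knockout cells with corticosterone Chil3 stood at 12.31 and 12.32, above the treated control, and on control untreated replicate 1 at 8.34. Chil3 has near-identical relatives, so the probe set may not tell them apart. Cd163, the scavenger receptor for haemoglobin bound to haptoglobin, read 10.69 and 10.65 against 6.44 and 5.92, a difference of -4.49 (SE 0.14, adjusted p = 7.62e-08). With hormone the knockout cells reached 10.69 and 10.77, level with the treated control. The pattern was the same for Fkbp5, the cochaperone that restrains steroid receptors and a standard readout of glucocorticoid action: 11.93 and 11.97 in treated control, 8.45 on both knockout untreated arrays, 12.07 on both knockout corticosterone arrays. Its difference was -3.50 (SE 0.04, adjusted p = 1.9e-10).

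The others among the 10 genes furthest down were alike in this. Orm2, an acute phase plasma glycoprotein, stood at 7.07 and 6.62 against 2.60 and 2.99, a difference of -4.05 (SE 0.20). Lyve1, a hyaluronan receptor of lymphatic vessels and some resident macrophages, read 8.58 and 8.57 against 4.78 and 4.69 (-3.85, SE 0.11). Sult1a1, a sulfotransferase for phenols, read 10.16 on both treated control arrays against 7.13 and 6.82 (-3.18, SE 0.09). In each of these the knockout cells with hormone returned to within 1 log2 unit of the treated control. Ms4a6b, a membrane protein of the MS4A family, read 11.95 and 11.91 against 8.88 and 8.82 (-3.08, SE 0.04). Nipal1 (-3.35), Slc10a6, a transporter of sulfated steroids (-3.0), and Cdo1, the enzyme that oxidises cysteine (-2.89), completed the 10.

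The promoters of the genes furthest down are shown because the receptors act through short DNA elements. The element bound by both receptors is a palindrome, a pair of 6-base core sites, AGAACA and its reverse complement TGTTCT, spaced by 3 bases. RefSeq promoters of assembly GRCm38.p6 were searched on both strands over the 250 bases before each start site. A promoter was counted for 8 of the 10 genes furthest down, 1 each, and 5 of the 8 held a core site. Promoters on 1 chromosome were left out of the counts for named genes, but not out of the share over all promoters. Among the 10 genes furthest up, 8 genes with 11 promoters held none. Of all 32851 promoters, 16.1% held a core site and 0.0091% the full element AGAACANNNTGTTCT, which no promoter of these genes held. The 4 printed here, each 5′ to 3′ in the direction of the gene and ending at the base before the start site, are those with core sites for Cd163, Orm2, Sult1a1 and Slc10a6. Capitals mark the core sites, which are matches of letters and not sites of binding. They lie at chr6:124304401-124304650 (plus strand, Cd163), chr4:63362199-63362448 (plus strand, Orm2), chr7:126676419-126676668 (minus strand, Sult1a1) and chr5:103629404-103629653 (minus strand, Slc10a6).
Cd163: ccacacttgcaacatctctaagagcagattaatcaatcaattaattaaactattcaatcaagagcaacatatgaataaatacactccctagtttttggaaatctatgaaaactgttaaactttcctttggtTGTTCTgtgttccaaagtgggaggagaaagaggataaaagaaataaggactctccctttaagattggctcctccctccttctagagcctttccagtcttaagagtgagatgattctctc
Orm2: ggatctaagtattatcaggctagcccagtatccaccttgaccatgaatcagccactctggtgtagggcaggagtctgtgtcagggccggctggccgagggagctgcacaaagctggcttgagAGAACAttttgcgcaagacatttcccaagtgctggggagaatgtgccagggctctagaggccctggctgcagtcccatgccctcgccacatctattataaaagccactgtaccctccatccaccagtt
Sult1a1: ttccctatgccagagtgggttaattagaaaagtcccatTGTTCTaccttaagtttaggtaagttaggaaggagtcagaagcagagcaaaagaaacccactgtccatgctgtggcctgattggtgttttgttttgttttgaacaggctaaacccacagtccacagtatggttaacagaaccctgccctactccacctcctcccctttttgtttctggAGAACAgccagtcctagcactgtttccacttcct
Slc10a6: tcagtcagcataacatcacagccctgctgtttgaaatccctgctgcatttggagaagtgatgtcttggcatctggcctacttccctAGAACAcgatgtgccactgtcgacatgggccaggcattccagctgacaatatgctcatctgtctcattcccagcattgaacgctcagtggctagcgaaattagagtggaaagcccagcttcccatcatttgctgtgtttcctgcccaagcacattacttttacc
In Cd163 the core site spans positions -119 to -114 from the start site, in Orm2 -128 to -123, and in Slc10a6 -164 to -159. The promoter of Sult1a1 holds 2, at -212 to -207 and at -34 to -29.

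The largest differences upward were in genes that stood high in knockout cells with hormone too and low on the 3 control arrays of the fit. On control untreated replicate 2, which was left out, several of them were not low: Nrn1 read 7.94, Cemip 7.34, Inha 6.70 and Ankrd1 8.62. Akr1cl, an aldo-keto reductase, read 4.48 and 3.64 in control corticosterone cells and 8.48 and 8.21 in knockout untreated cells, a difference of 4.29 (SE 0.24, adjusted p = 2.6e-06). Knockout cells with hormone read 8.85 and 8.97, and control untreated replicate 1 read 3.70. Hsd3b1, an enzyme of steroid hormone synthesis, read 3.67 and 4.26 against 7.99 and 8.0 (4.03, SE 0.18). Cyp11a1, the mitochondrial enzyme that cleaves the cholesterol side chain and so opens steroid synthesis, read 5.72 and 5.33 against 8.91 and 9.01 (3.44, SE 0.13). With hormone the knockout cells held Hsd3b1 at 7.60 and 7.62 and Cyp11a1 at 9.30 and 9.19.

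**Figure D1:**
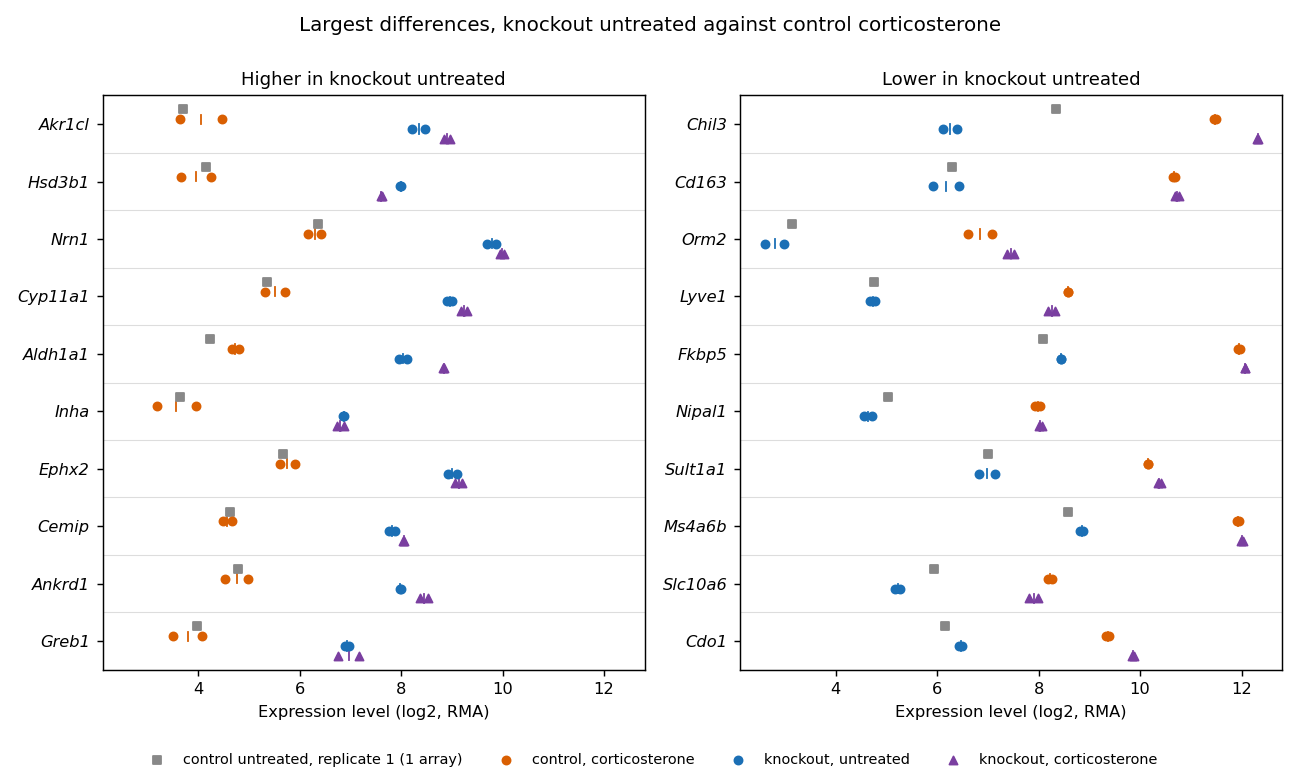
Log2 level (horizontal axis) of the 10 genes furthest down and the 10 furthest up in knockout untreated cells against control corticosterone cells, 1 point for each array of the fit, with the group coded as in the key. For the genes furthest down, knockout untreated arrays lie on the side of control untreated replicate 1 and away from both hormone groups, as in Fkbp5 (8.45 against 8.08). Chil3 lies below that array. For the genes furthest up, both knockout groups lie together, as in Hsd3b1.

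The rest of the 10 genes furthest up encode proteins of several kinds. Inha, the inhibin alpha subunit that restrains pituitary follicle-stimulating hormone, read 3.19 and 3.96 against 6.86 and 6.88 (3.30, SE 0.23). Aldh1a1, which makes retinoic acid from retinal, read 4.80 and 4.67 against 7.97 and 8.12 (3.31, SE 0.12). Nrn1, a neuritin of the cell surface, read 6.42 and 6.17 against 9.70 and 9.88 (3.49, SE 0.10). Ephx2, the soluble epoxide hydrolase that breaks down epoxy fatty acids, differed by 3.26. Cemip, a hyaluronan-degrading protein (3.25), Ankrd1, a transcriptional cofactor with ankyrin repeats (3.23), and Greb1, an oestrogen-responsive gene (3.14), completed them. Other probe sets of the same genes read smaller differences: 0.46 for Akr1cl and 0.14 to 0.74 for Cyp11a1. They were -0.01 to 0.05 for Cemip and 0.05 to 0.78 for Greb1. Averaging the probe sets of a gene gave 2.37 for Akr1cl, 1.44 for Cyp11a1, 1.10 for Cemip and 1.04 for Greb1.

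The knockout corticosterone arrays let the difference be read in steps. The contrast equals the knockout against control difference under hormone minus the response to hormone in knockout cells, and since these steps share arrays with it they are values set side by side, not separate evidence. The response to hormone in knockout cells called 2493 genes (13.7%), 1046 higher (5.75%) and 1447 lower (7.95%). The genotype step under hormone called 296 (1.63%), 235 higher (1.29%) and 61 lower (0.335%). Of the 1961 genes higher in knockout untreated cells, the hormone step was the larger in 1545 (78.8%), and of the 1167 lower genes in 1044 (89.5%). The balance changed with size among higher genes. At 1 log2 unit or more the hormone step was the larger in 218 of 308 higher genes (70.8%), and at 2 units or more in 22 of 45 (48.9%). Among lower genes it was the larger in 94 of 101 (93.1%) and 21 of 22 at those sizes. For the 308 higher genes the median difference was 1.37, with medians of 0.96 for the hormone step turned in sign and 0.37 for the genotype step. For the 101 lower genes these medians were -1.47, -1.41 and -0.03.

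**Figure D2:**
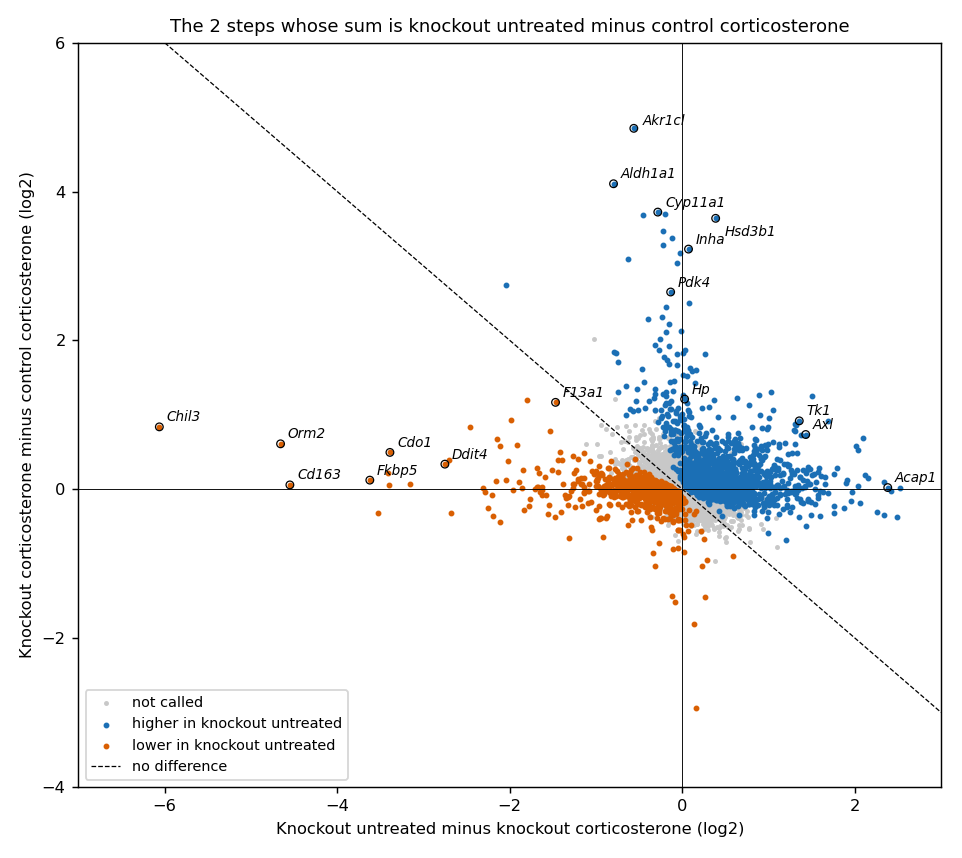
Genotype step under hormone (vertical axis, knockout minus control, log2 units) against the hormone step in knockout cells turned in sign (horizontal axis, log2 units), 1 point per gene with the called genes coloured by direction. Named genes furthest down spread along the horizontal axis, as Fkbp5, and those furthest up along the vertical axis, as Hsd3b1 and Cyp11a1. Both axes share the knockout corticosterone arrays.

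How close the untreated knockout came to the hormone state was read on the genes that corticosterone moved in control cells by more than 1 log2 unit. They were picked with control untreated replicate 1 as the only baseline and with the control corticosterone arrays that also stand in the contrast, so their values are a description. The hormone step in control cells called 882 genes higher (4.85%) and 1082 lower (5.95%). Past 1 log2 unit hormone raised 125 genes, by a median of 1.38. In knockout untreated cells these stood a median of 1.27 log2 units below the treated control (difference -1.27, range -5.22 to 0.40). Only 12 of the 125 lay within 0.5 log2 units of it, and 3 lay above it. It lowered 142 genes, by a median of 1.28 (difference -1.28). In knockout untreated cells these stood a median of 1.50 above the treated control, with a range of 0.39 to 2.79, and 4 of the 142 lay within 0.5 units. None of the 142 lay below the treated control.

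A few hormone genes did stand near the treated level without hormone. F13a1, the A subunit of clotting factor XIII made by macrophages, read 8.15 on control untreated replicate 1, 10.61 and 10.56 in control corticosterone cells and 10.26 and 10.31 in knockout untreated cells. Its remaining difference was -0.30 (SE 0.04, adjusted p = 0.000876), and with hormone the knockout cells rose past both to 11.78 and 11.73. Ptgds, a prostaglandin D synthase, read 4.84 on control untreated replicate 1, 6.03 and 5.97 in control corticosterone cells, and 6.05 and 6.02 in knockout untreated cells. The 95% interval of its difference ran from -0.32 to 0.39 around 0.04. Mefv, Rims2, Frat2, Apoc1, Slc13a3, Rhobtb1, Pla1a and Hs3st3a1 made up the 10 nearest, with differences from -0.38 to 0.39, none called. Frat2, Slc13a3, Rhobtb1 and Pla1a passed with centred arrays, at differences from -0.52 to -0.45, as did Mefv without knockout untreated replicate 1 (0.58) and Rhobtb1 without knockout untreated replicate 2 (-0.47). Most of these genes were dim, which leaves small differences less certain. Ptgds, Frat2 and Rhobtb1 rose with hormone against control untreated replicate 1 only. On replicate 2 of that group they read 9.66, 8.21 and 11.19, above the treated control. F13a1 (8.95), Mefv, Apoc1, Slc13a3 and Pla1a read below the treated control there.

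**Figure D3:**
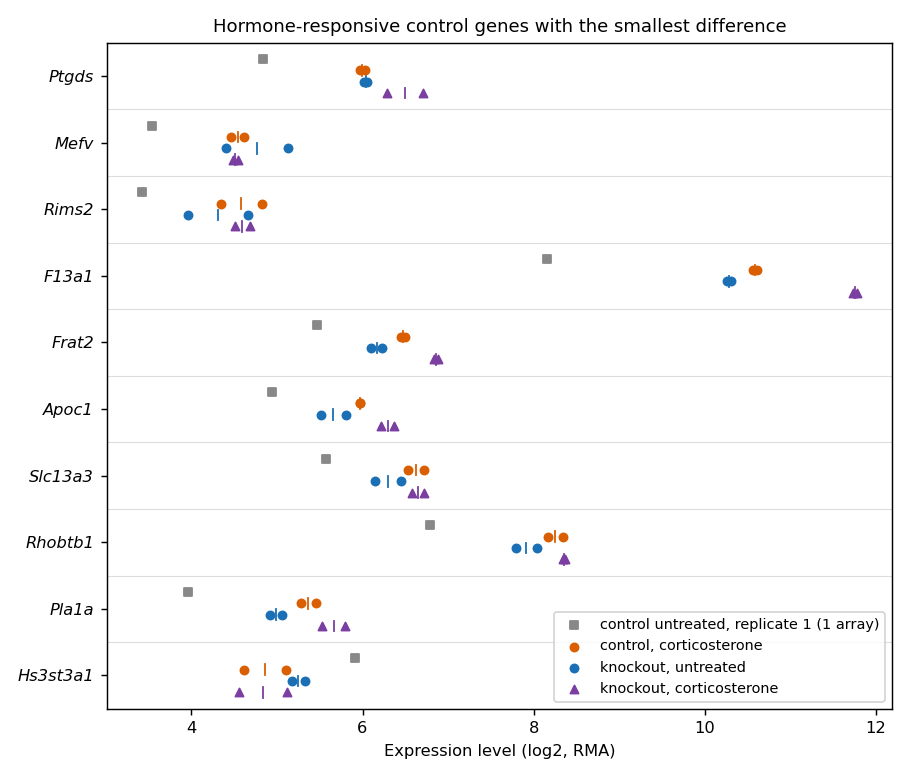
Log2 level (horizontal axis) of the 10 hormone genes of control cells whose level in knockout untreated cells lay nearest the treated control, 1 point per array. In F13a1 the knockout untreated arrays at 10.26 and 10.31 lie close under the treated control and far above control untreated replicate 1 at 8.15. That baseline is a single array.

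Known glucocorticoid-induced genes were more often lower than higher in the untreated knockout, against the balance of all genes as deposited. Of 37 measured, 18 were lower, 8 higher and 11 not called, with a median difference of -0.17 against 0.02 over all genes. With centred arrays 21 were lower and 5 higher, but most calls over all genes were then lower too (3275 against 980 higher). The contrast in direction of most calls thus depended on the scaling. The list's median lay below that of all genes either way, at -0.32 against -0.13 with centred arrays. Tsc22d3, which encodes the leucine zipper GILZ, read 11.62 on both treated control arrays against 9.95 and 9.87 (-1.71, SE 0.04), or -0.95 over the mean of its probe sets. Mt2, a metallothionein that binds zinc, read 13.20 and 13.17 against 11.45 and 11.58 (-1.67). Mertk, a receptor for apoptotic cells, read 11.87 and 11.83 against 10.21 and 10.07 (-1.71). Ddit4, an inhibitor of mTOR signalling, differed by -2.42 and the zinc finger gene Zbtb16 by -2.30. The members that went the other way were led by Pdk4, a kinase that shuts down pyruvate oxidation, at 6.42 and 6.25 against 8.73 and 8.97 (2.51, SE 0.13). Knockout cells with hormone also held Pdk4 at 9.14 and 8.83. The control untreated arrays differed widely for Pdk4, at 5.83 and 10.05, and for Ddit4, at 9.11 and 12.30. The second Ddit4 reading lay above both treated control arrays, at 11.97 and 12.02. Fpr2, a formyl peptide receptor, was higher by 2.10. Of 18 epithelial targets of the mineralocorticoid receptor, 8 were lower, 1 higher and 9 not called, with a median of -0.14. Fkbp5, Tsc22d3, Per1 and Zbtb16 are among these lower calls and also among those of the glucocorticoid-induced list, so the counts overlap. Orm1 (-2.06), Per1 (-1.59) and the epithelial transport genes Atp1b1 (-0.57) and Nedd4l (-0.51) were among the lower, and Ndrg2 was the higher one (0.63). Without knockout untreated replicate 2 or either control corticosterone replicate, none of these epithelial targets was called higher.

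**Figure D4:**
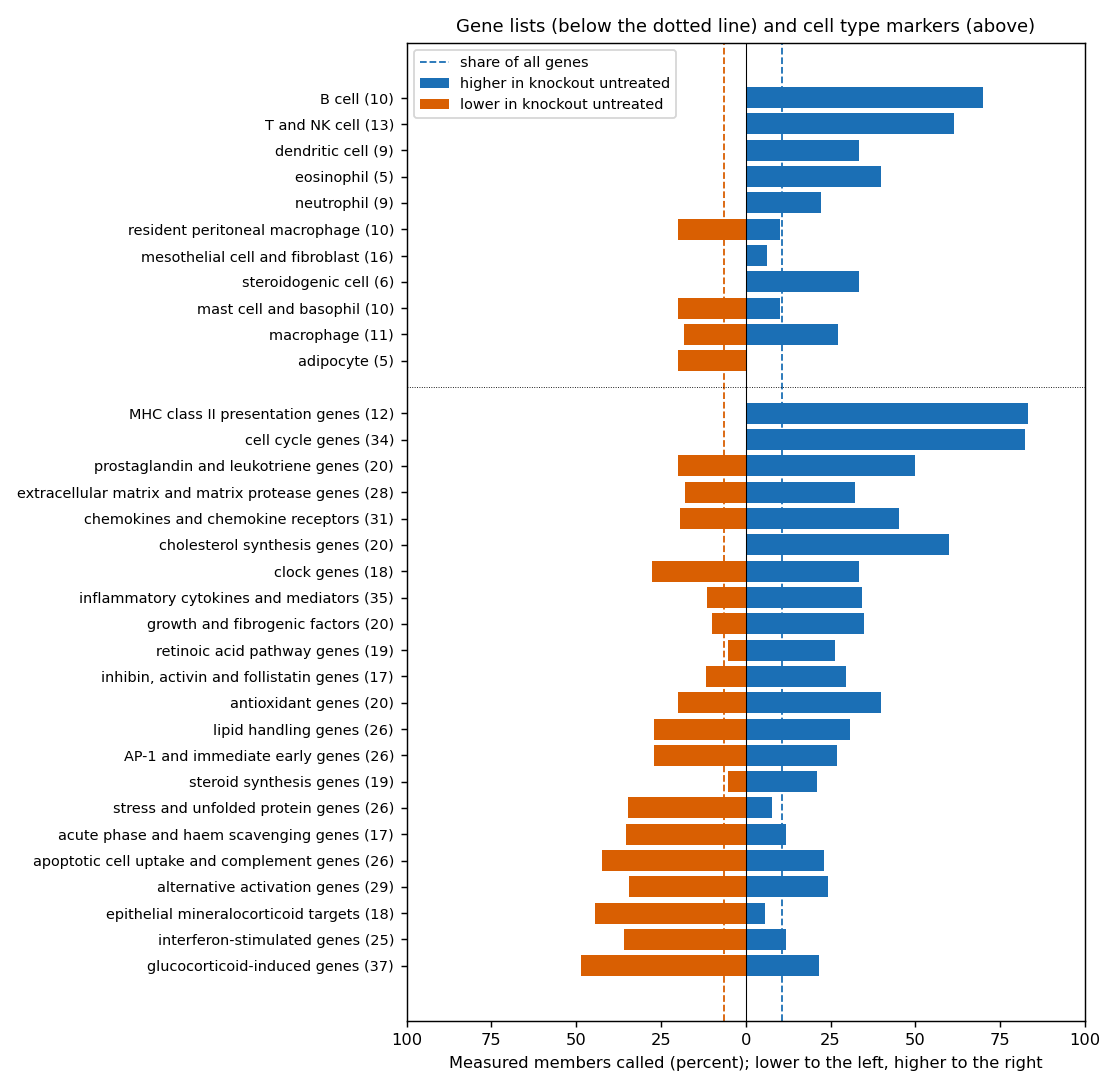
Percent of the measured members of each list (vertical axis, number measured in brackets) called higher (right of 0) or lower (left of 0) in knockout untreated cells than in control corticosterone cells, with all genes at 10.8% and 6.41% for reference. The MHC class II, cell cycle and B cell lists have no member on the lower side, and the glucocorticoid-induced list has 18 of 37 there and 8 on the higher side.

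Genes of alternative activation, the programme that macrophages take up under type 2 cytokines, divided. Of 29 measured, 10 were lower and 7 higher, with a median of -0.11, and without control corticosterone replicate 1 the counts were 8 and 4. Clec10a, a galactose-type lectin, read 11.90 and 11.82 against 10.04 and 10.15 (-1.77), and the arginase gene Arg1 was lower by a difference of -2.32. Retnla, another classic member, was higher by 0.63, and Fn1, fibronectin, read 11.49 and 11.48 against 12.67 and 12.74 (1.22). Of 17 acute phase and haem scavenging genes 6 were lower and 2 higher (median -0.07). Hp, haptoglobin, read 9.25 and 9.21 against 10.50 and 10.44 (1.24, SE 0.05), and its partner receptor Cd163 moved the opposite way. Hp was also high in knockout cells with hormone, at 10.40 and 10.48. Of 26 genes for uptake of apoptotic cells and complement, 11 were lower and 6 higher (median -0.07). Mertk and its relative Axl moved apart: Axl read 8.04 and 8.25 against 10.31 and 10.30 (2.17, SE 0.08), or 1.15 over the mean of its probe sets. C1qa, which starts the classical complement cascade, was lower by a difference of -0.62, and Cfb of the alternative pathway was higher by 1.39.

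Of 35 inflammatory mediators measured, 12 were higher, 4 lower and 19 not called, where 10.8% of all genes were higher and 6.41% lower. Without control corticosterone replicate 2 the counts were 9 and 2. Their median of 0.12 turned to -0.02 with centred arrays, which left 9 higher and 6 lower. The median over all genes moved likewise, from 0.02 to -0.13, and 980 of 18193 genes were then higher and 3275 lower. Acod1, which makes itaconate in activated macrophages, read 4.79 and 5.0 in control corticosterone cells and 7.19 and 7.22 in knockout untreated cells (2.31, SE 0.14). Icam1, the adhesion molecule that binds leukocyte integrins, read 8.84 and 8.83 against 10.31 and 10.36 (1.50, SE 0.08). Both returned to near the treated control in knockout cells with hormone, Acod1 at 5.17 and 5.01. Tnf was higher by 0.69, Ptgs2, the inducible cyclooxygenase, by 0.96, and Relb of the NF-κB family by 0.97. Il18 was lower by a difference of -0.69 and Nfkbia, the inhibitor that NF-κB itself induces, by -0.16.

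Of 31 chemokines and their receptors, 14 were higher and 6 lower, with a median of 0.23. Ccr2 and Cx3cr1 are the receptors that mark inflammatory and patrolling monocytes. Ccr2 read 5.66 and 5.29 against 7.55 and 7.58 (2.09), and Cx3cr1 read 5.83 and 5.20 against 7.83 and 7.87 (2.33, SE 0.20). Cxcl14 read 10.67 and 10.57 against 12.22 and 12.13 (1.56), and Cxcl5, an attractant of neutrophils, was higher by 2.18. Ccl7, an attractant of monocytes, was lower by a difference of -1.0, and Pf4, platelet factor 4, by -0.80. Of 25 interferon-stimulated genes, 9 were lower and 3 higher (median -0.14). Without control corticosterone replicate 1 these counts were 4 and 1, and without replicate 2 of that group 5 and 2. Irf7, the master factor of type I interferon induction, read 8.99 on both treated control arrays against 8.39 and 8.28 (-0.65), whereas Irf1 was higher by 0.61.

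MHC class II genes, which display peptides to CD4 T cells, were higher nearly throughout: 10 of 12 measured, none lower, with a median of 1.35. H2-Aa read 9.66 and 9.76 against 11.13 and 11.07 (1.39, SE 0.05). H2-Eb1 read 9.35 and 9.34 against 11.06 and 11.01 (1.69), and the invariant chain Cd74 was higher by 0.89. In knockout cells with hormone H2-Aa stood at 10.22 and 10.26, between the 2 groups compared. Markers of B cells, which carry MHC class II at high level, differed in the same direction. Of 10 measured, 7 were higher and none lower, with a median of 1.43. Their mean level was 7.21 and 7.23 in control corticosterone cells and 8.48 and 8.37 in knockout untreated cells. It was 7.17 and 7.27 in knockout corticosterone cells, 8.18 on control untreated replicate 1 and 7.45 on replicate 2 of that group. Cd79a, a chain of the B cell receptor complex, read 7.84 and 7.91 against 9.42 and 9.43 (1.55), while the defining factor Pax5 lay between 3.27 and 3.51. Of 13 T and NK cell markers 8 were higher and none lower, with mean levels of 4.50 and 4.47 against 5.42 and 5.38. Of 9 dendritic cell markers 3 were higher, with mean levels of 5.08 and 4.95 against 5.71 and 5.82, and Cd209a differed by 2.79. The part of these cells in the class II result was not tested, and in a bulk sample fewer cells of a type and less RNA per cell cannot be told apart.

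**Figure D5:**
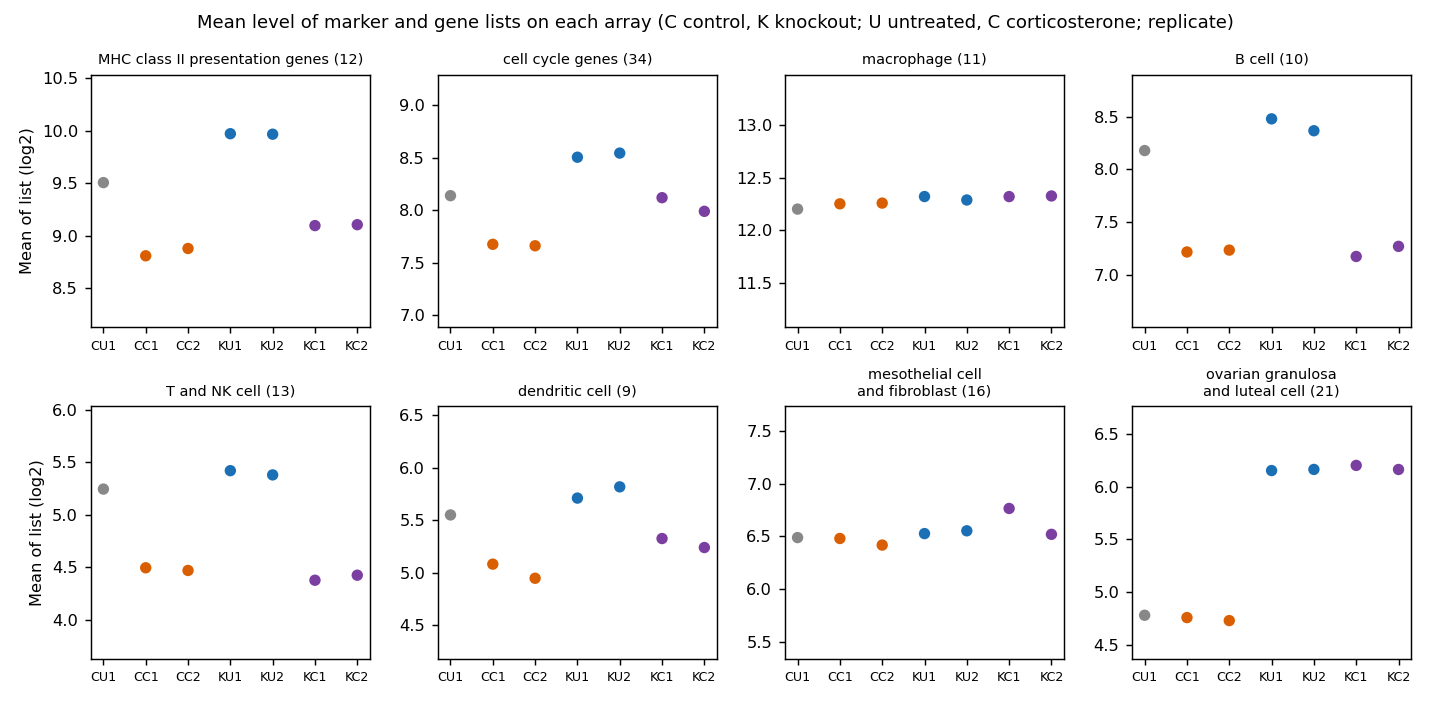
Mean log2 level (vertical axis) of the members of selected lists on each of the 7 arrays of the fit, with groups along the horizontal axis. B cell and T and NK cell lists are low in both hormone groups, macrophage markers are level, and the granulosa and luteal list is high in both knockout groups (6.15 to 6.20) and low on the 3 control arrays of the fit (4.73 to 4.78). Control untreated replicate 2, not drawn, read 5.41 for that list and 11.48 for macrophage markers. C is control and K knockout, U untreated and the second C corticosterone.

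Genes of the cell cycle were higher in 28 of 34 measured, none lower, with a median of 0.71. Ccnd1, the cyclin of early G1, read 11.36 and 11.32 against 12.02 and 12.09 (0.71). Tk1, the thymidine kinase of S phase, read 6.30 and 6.04 against 8.42 and 8.47 (2.27, SE 0.14). Cdk1, the kinase of mitotic entry, read 7.55 and 7.66 against 8.79 and 9.01 (1.30), and Top2a, the topoisomerase of dividing cells, differed by 1.28, or 0.48 over the mean of its probe sets. The list's mean level was 7.68 and 7.66 in control corticosterone cells, 8.50 and 8.54 in knockout untreated cells, 8.12 and 7.99 in knockout corticosterone cells and 8.14 on control untreated replicate 1. It was lowest in treated control cells. The control untreated arrays differed widely for this list, with 9.19 on replicate 2. The B cell and the T and NK cell lists given above were low in both hormone groups, and their part in the cell cycle result was not tested.

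Among metabolic lists, the cholesterol list had small differences and the others some large ones. Of 20 cholesterol synthesis genes 12 were higher and none lower, with a median of 0.19. With centred arrays 5 were higher and 1 lower, with a median of 0.05 against -0.13 over all genes. Fdft1, squalene synthase, read 10.41 on both treated control arrays against 10.92 and 10.98 (0.54), or 0.26 and not called over the mean of its probe sets, and Cyp51 differed by 0.47. Lipid handling genes divided, 8 higher and 7 lower of 26 (6 and 10 with centred arrays), with Pdk4 (2.51) the furthest up. Fasn, fatty acid synthase, was higher by 0.70, and Apoc2, the cofactor of lipoprotein lipase, was lower by a difference of -0.68. Of 20 antioxidant genes 8 were higher, among them Nqo1 by 1.22, and 4 lower (5 and 7 with centred arrays), with Cdo1 (-2.89) the furthest down. Gpx3, the secreted glutathione peroxidase, read 10.29 and 10.36 against 9.25 and 9.30 (-1.05). Of 26 stress and unfolded protein genes 9 were lower and 2 higher, with Ddit4 at -2.42, Asns, asparagine synthetase, at -0.43 and Atf6 at -0.32. Higher calls were 4 without knockout untreated replicate 1, and 1 without knockout untreated replicate 2 or either control corticosterone replicate. Of 20 prostaglandin and leukotriene genes 10 were higher and 4 lower (median 0.28), and lower calls were 2 without knockout untreated replicate 2 or either control corticosterone replicate. Ptgis, prostacyclin synthase, read 9.79 and 9.71 against 10.76 and 10.71 (0.99), and its receptor Ptgir differed by 1.15.

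Clock and immediate early genes divided. Of 18 clock genes 6 were higher and 5 lower, which was 5 and 6 with centred arrays, and 5 and 3 without knockout untreated replicate 2 or control corticosterone replicate 1. Period genes encode repressors of the clock, and Per1 is also a direct target of the glucocorticoid receptor. Per1 read 9.62 and 9.57 against 8.06 and 7.95 (-1.59), whereas Per3 read 7.14 and 7.21 against 8.46 and 8.65 (1.38). The other 5 probe sets of Per3 differed by -0.18 to 0.86, and the mean of its probe sets by 0.40. Bhlhe41 (1.22) and Dbp (0.75) were higher, and Arntl, the core activator, was lower by a difference of -0.66. Of 26 AP-1 and immediate early genes 7 were higher and 7 lower (6 and 9 with centred arrays, 6 and 4 without control corticosterone replicate 2). Dusp1, a phosphatase that switches off MAP kinases, read 13.06 and 13.15 against 12.33 and 12.41 (-0.73), and Klf2 was higher by 1.56.

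Steroid synthesis genes as a list were not generally higher: 4 of 19 were higher, 1 lower and 14 not called, with a median of -0.02. The lower call was lost without knockout untreated replicate 2 or either control corticosterone replicate. The 4 were Hsd3b1, Cyp11a1, Hsd11b1 and Nr5a2. Nr5a2, an orphan nuclear receptor that drives steroid enzymes, read 2.95 and 2.96 against 5.89 and 5.98 (2.98, SE 0.14), and another choice of its probe set gave 1.53 and the mean of its probe sets 1.38. Star, which carries cholesterol into mitochondria, read 6.33 and 6.50 against 6.40 and 6.37, and Nr5a1, the master factor of gonads and adrenals, lay between 3.64 and 4.12. Of 17 inhibin, activin and follistatin genes 5 were higher and 2 lower, or 3 and 1 without either control corticosterone replicate. Inhba, the activin A subunit, read 5.79 and 4.79 against 7.44 and 7.38 (2.12, SE 0.26, or 1.12 over the mean of its probe sets). Fst, the activin antagonist, read 6.06 and 5.72 against 7.57 and 7.74 (1.76). The control untreated arrays differed widely for Fst, at 6.11 and 10.28, and for Crabp2 of the retinoic acid list, at 5.90 and 10.32. Of 19 retinoic acid genes 5 were higher, Aldh1a1, Crabp2 (0.87), Aldh1a2 (0.66), Rarg (0.48) and Dhrs3 (0.11), and 1 lower. Without control corticosterone replicate 1, 3 were higher and none lower, and without replicate 2 of that group 2 and none. Crabp2 lost its call without replicate 1 of that group, Aldh1a2 without replicate 2, and Rarg without either and over the mean of its probe sets.

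Several of these genes belong to the granulosa and luteal cells of the ovary, and a list of such genes was drawn up after their values were seen. Of 21 measured, 13 were higher and none lower, with a median of 0.87, and since the list was chosen on these samples it is no independent evidence. Its mean level was 4.76 and 4.73 in control corticosterone cells, 6.15 and 6.17 in knockout untreated cells, 6.20 and 6.16 in knockout corticosterone cells, 4.78 on control untreated replicate 1 and 5.41 on replicate 2 of that group. Foxl2, the defining factor of granulosa cells, read 3.35 and 3.61 against 4.44 and 4.34 (0.91), and Gata4 differed by 0.87. Amh, Fshr, Nr5a1, Star, Akr1c18 and Pgr were not called. Of 6 markers of steroid-producing cells 2 were higher, Cyp11a1 and Hsd3b1. Of 16 markers of mesothelial cells and fibroblasts 1 was higher, Thy1 by 1.06, and none lower, where 10.8% and 6.41% of all genes were. The counts were 5 and 1 without knockout untreated replicate 1, 1 and 1 without knockout untreated replicate 2, and 3 and none without either knockout corticosterone replicate. The part of ovarian or other tissue in the steroid, inhibin and retinoic acid results was not tested.

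Matrix and growth factor genes closed the comparison. Of 28 extracellular matrix and protease genes 9 were higher and 5 lower (median 0.26). Without knockout untreated replicate 1 the counts were 15 and 6, without control corticosterone replicate 1 they were 5 and 5, and without replicate 2 of that group 4 and 5. The median was 0.14 without knockout untreated replicate 2. Col4a2, a basement membrane collagen chain, was higher by 0.79 and Plaur, the urokinase receptor, by 0.55, while Mmp19 was lower by a difference of -0.51. Thbs1, thrombospondin 1, read 9.93 and 9.90 against 8.92 and 8.82 (-1.05). Of 20 growth and fibrogenic factors 7 were higher and 2 lower, or 3 and 3 with centred arrays and 5 and 1 without either control corticosterone replicate. Vegfa, the main driver of vessel growth, read 7.41 on both treated control arrays against 8.29 and 8.32 (0.90), and it was 7.25 and 7.36 in knockout cells with hormone. Ccn1, a matricellular protein, read 7.86 and 7.89 against 8.92 and 9.27 (1.22), and it was also high in knockout cells with hormone, at 9.38 and 9.02. The control untreated arrays differed widely for Ccn1, at 7.36 and 11.45.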

How the data were processed

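The authors deposited a log2 value for each probe set on each array, made with RMA in R 2.7 per the submitters' processing notes. RMA makes the distributions of arrays alike, so a change in total RNA leaves no trace and dim values are compressed. Cells, RNA (RNeasy) and biotin labelling (NuGen Ovation) are as in the labels' protocols.

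Of 45101 probe sets, 34945 named 1 gene, 932 several and 9160 none here. Symbols were updated through assembly GRCm38.p6. Each gene took the probe set with the highest mean over 8 arrays. Contrasts were fitted with limma 3.58.1 in R 4.3.3 (group coefficients, variance trend), on 7 arrays, with Benjamini-Hochberg adjustment and no minimum fold. The fit was tested on simulated data. Arrays give no counts, so the number of arrays limits precision. Genes named are the 10 largest called differences each way without overlapping replicates, receptor and marker genes, up to 4 members per list with the smallest p, and the 10 hormone genes nearest the treated control. Others named were chosen after their values were seen. The members and lists were chosen with earlier results of these data known.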

Additional observations from a re-analysis of the deposited data

Results flagged for a closer look

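Control untreated replicate 2, which was left out of the 7-array fit, carried higher signal of Y-linked genes than the other 7 arrays. Eif2s3y read 10.06 there, 4.83 to 5.60 on the knockout arrays and 4.31 to 4.46 on the other control arrays. Kdm5d read 6.84 with 1 of its probe sets, and Uty read 5.13 and 6.21 with 2 of its probe sets. Xist stood high on all 8 arrays with its brightest probe set, at 12.05 to 12.27. Its other probe sets were lower on control untreated replicate 2. They read 9.96 and 8.02 there, against 10.85 to 11.12 and 9.93 to 10.21 on the other 7 arrays. The source of the Y-linked signal was not tested.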

How the results depend on the processing

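Calls shared between the 7-array fit and each alternative had the same sign. No called gene among the 106 named by rule reversed. Other genes named in the text were not checked for this. As deposited, with 7 arrays, 1961 genes were higher and 1167 lower. The counts were 28 and 24 with all 8 arrays, where 967 genes had an unadjusted p under 0.05, 1095 and 605 without the variance trend, 980 and 3275 with arrays centred on their median, and 308 and 101 at 1 log2 unit or more. Leaving out 1 array at a time gave 1054 to 2426 higher and 637 to 1394 lower genes. The 5-array fit, chosen after seeing the data, gave 1586 and 1013. Apart from the fold minimum, the cause of these differences was not tested. The fits with the 4 arrays alone, array weights, robust variance, averaged or other probe sets, a floor of 6 log2 units, or without the genes high on control untreated replicate 2 stayed within 1.5 times the counts. The replicate numbers did not pair the samples (correlation of replicate differences -0.014 between the groups compared). With the number as a replicate block 1699 genes were higher and 1025 lower. Of the 106 genes named by rule, 93 were called, and all 8 arrays ended the call of 72.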

Other observations

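Markers of other peritoneal cells were also read. Over all genes 10.8% were higher and 6.41% lower, so 1 or 2 calls in lists this short are given as description. Of 10 markers of resident peritoneal macrophages, 2 were lower in knockout untreated than in control corticosterone cells, Lyve1 and Selp (-1.44), and Cd209b was higher by 1.37. Gata6, the factor that defines these cells, read 6.89 and 6.88 against 6.74 and 6.71 and was not called. Of 10 mast cell and basophil markers 2 were lower, the IgE receptor chain Fcer1a (-1.65) and the protease Cpa3 (-0.52), and Gata2 was higher by 1.04. Without either control corticosterone replicate, 1 of them was lower. Of 5 eosinophil markers 2 were higher, Siglecf by 0.79 and the interleukin-5 receptor chain Il5ra by 0.97, and 1 without knockout untreated replicate 1 or control corticosterone replicate 2. Of 9 neutrophil markers 2 were higher, S100a8 by 0.18 and Csf3r by 0.39, and 1 without control corticosterone replicate 2. Of 5 adipocyte markers 1 was lower, Fabp4 (-0.34), which macrophages also express.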
